A study of Mus musculus with 9 samples.

Results

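The neutrophil primary granule enzymes are the 4 genes Elane (neutrophil elastase), Prtn3 (proteinase 3), Ctsg (cathepsin G) and Mpo (myeloperoxidase). They were taken by gene name from a table of 45706 genes, of which 13248 were tested. All 4 passed the expression filter and are described here in every lung. The members were chosen by the differences between treatments seen earlier in these same data. Their levels and differences are therefore given as a description, without p-values.

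RNA was sequenced from the lungs of female BALB/c mice, 4 to 6 weeks of age, that had received 4T1 mammary carcinoma cells in the right flank; 4T1 is a mouse cell line. The control group received phosphate-buffered saline (PBS), the second group an antibody against the inhibitory T cell receptor PD1, and the third group nanocapsules of that antibody. All 3 groups shared the tumour injection, treatment on days 7 and 14 and lung collection on day 21, with 3 lungs a group. The labels state 150 µg per mouse for the nanocapsules, and it is unclear from their wording whether the free antibody was given at that dose. The study asked about possible immune-related adverse events in the lung. Lungs without a tumour injection, or given empty capsules, were not analysed here. Animals are not identified in the labels, and p-values cover only the spread between these 9 samples, which may be technical.

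Primary granules, also called azurophil granules, are the first granules made by a developing neutrophil. Their enzymes are transcribed mainly at the promyelocyte stage in the bone marrow. The messenger RNA is then shut off, and mature neutrophils carry the stored proteins with little of the transcript. Elastase, proteinase 3 and cathepsin G are related serine proteases that are activated by cathepsin C. Myeloperoxidase makes hypochlorous acid from hydrogen peroxide and chloride. Secondary and tertiary granules are made later, from other genes.

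Elane (ENSMUSG00000020125) lies at chr10:79886247-79888215 and Prtn3 (ENSMUSG00000057729) at chr10:79874476-79883174, both on the plus strand, in GENCODE M21 on GRCm38. These 2 neighbours are separated by 3072 bp. Ctsg (ENSMUSG00000040314) lies at chr14:56099881-56102574 on the minus strand, and Mpo (ENSMUSG00000009350) at chr11:87793581-87804413 on the plus strand. The longest coding transcripts have 5 exons for each protease gene and 14 for Mpo. The sequence just upstream of each gene is printed because the means of the members, on 3 chromosomes, differed between groups in the same direction. It comes from RefSeq on GRCm38.p6, 5′ to 3′ on the strand of the gene. Each stretch begins 250 bases before the RefSeq start and ends before the first base of the GENCODE transcript. The stretches of Elane, Mpo and Ctsg lie outside the annotated span of their gene. That of Prtn3 lies within the span of the gene because another Prtn3 transcript starts further upstream. Overlap with exons of other transcripts was not examined. The Mpo stretch is short because its GENCODE start lies 203 bases upstream of the RefSeq start. Capitals mark AGGAAGT, a core bound by ETS family factors such as PU.1, the product of Spi1. The positions are chr10:79886062-79886246 on the plus strand for Elane, chr10:79879417-79879613 on the plus strand for Prtn3, chr11:87793534-87793580 on the plus strand for Mpo and chr14:56102575-56102824 on the minus strand for Ctsg.
Elane: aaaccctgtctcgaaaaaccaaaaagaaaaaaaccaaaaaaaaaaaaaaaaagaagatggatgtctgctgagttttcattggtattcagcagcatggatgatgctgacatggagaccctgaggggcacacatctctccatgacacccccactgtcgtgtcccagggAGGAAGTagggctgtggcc
Prtn3: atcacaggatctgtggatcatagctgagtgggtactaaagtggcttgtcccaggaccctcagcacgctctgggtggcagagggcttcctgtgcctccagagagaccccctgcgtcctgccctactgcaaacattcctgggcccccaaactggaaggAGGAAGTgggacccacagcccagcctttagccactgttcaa
Mpo: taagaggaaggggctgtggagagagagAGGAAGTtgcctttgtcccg
Ctsg: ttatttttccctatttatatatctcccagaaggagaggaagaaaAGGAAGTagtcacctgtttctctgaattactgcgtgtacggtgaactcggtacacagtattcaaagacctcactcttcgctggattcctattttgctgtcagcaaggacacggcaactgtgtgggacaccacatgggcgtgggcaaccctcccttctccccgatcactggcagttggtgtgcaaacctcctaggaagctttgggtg

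The letters AGGAAGT occurred in the upstream 250 bases of all 4 genes, each time on the strand of the gene. They were chosen for the search after these sequences had been read. The match began 84 bases before the RefSeq start of Elane, 94 before that of Prtn3, 223 before that of Mpo and 206 before that of Ctsg. Counted to the GENCODE start, the distances were 19 bases for Elane, 41 for Prtn3 and 20 for Mpo, and stayed at 206 for Ctsg. On either strand, 7.69% of 32851 mouse promoters of this length held the 7 letters, as did 7.99% of the 11954 promoters of tested genes. Among promoters found for the other neutrophil lists, 3 of 13 of secondary and tertiary granule genes held them. So did 3 of 17 of mature neutrophil genes and 2 of 6 of other primary granule contents. GAGGAA, a PU.1 core that overlaps AGGAAGT in Elane, Prtn3 and Mpo, was present in 4 of 4 against 23.3% of promoters. It was present in 9 of 13, 10 of 17 and 2 of 6 of the same lists. The MYB core AACNG was present in 4 of 4, against 74.2%, and in 12 of 13, 16 of 17 and 6 of 6. The RUNX core TGTGGT was present in Ctsg alone, against 14.0%, and in 1 of 13, 4 of 17 and 1 of 6. TTNNGNAA, a C/EBP pattern, was present in none of the 4, against 36.8%, and in 9 of 13, 11 of 17 and 3 of 6. All 5 patterns were searched on both strands. A match is a description of letters and not a binding site, and a pattern missing from this window says nothing about the factor.

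**Figure D1:**
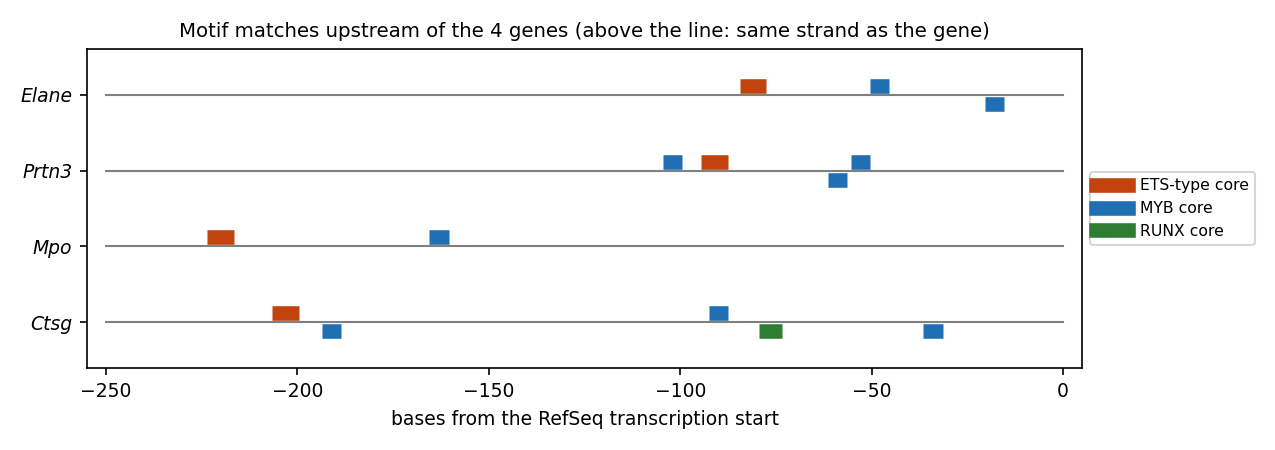
Matches to the ETS-type, MYB and RUNX cores in the 250 bases before the RefSeq start of the 4 genes, by distance from the start in bases. Marks above a line are on the strand of the gene and those below are on the opposite strand. Each gene has 1 ETS-type match, at 84 to 78 bases in Elane, 94 to 88 in Prtn3, 223 to 217 in Mpo and 206 to 200 in Ctsg.

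Levels are given as the deposited TPM, which are corrected for transcript length and have the same sum in every library. They keep no sequencing depth, which is therefore unknown. The number of genes at 1 TPM or more was 12194 to 13407 over the libraries. S100a8 and S100a9, abundant cytosolic genes of neutrophils, took 10.3% to 17.5% of the TPM, so neutrophil RNA was plentiful in every lung. The 13248 tested genes had a median log2 difference of 0.04 between anti-PD1 and PBS lungs, of -0.11 between nanocapsule and PBS lungs and of -0.17 between nanocapsule and anti-PD1 lungs. The last of these moved to 0.02 with quantile scaling.

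In every one of the 3 anti-PD1 lungs, each of the 4 enzymes was lower than in every PBS lung and every nanocapsule lung. Mean transcript levels in the anti-PD1 lungs were 43.7% of the PBS mean for Elane, 46.4% for Mpo, 61.3% for Ctsg and 68.1% for Prtn3. The nanocapsule means were 114%, 102%, 100% and 137% of the PBS means in the same order. In whole lung RNA, fewer cells of a type and less RNA per cell cannot be told apart.

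Elane encodes neutrophil elastase, which degrades elastin and bacterial proteins. It was at 10.1, 12.9 and 13.6 TPM in PBS lungs 1 to 3, at 5.55, 4.72 and 5.70 TPM in anti-PD1 lungs 1 to 3, and at 11.6, 16.5 and 13.6 TPM in nanocapsule lungs 1 to 3. The anti-PD1 lungs formed a narrow low group, and the PBS and nanocapsule lungs overlapped. Group means were 12.2 ± 1.87, 5.32 ± 0.526 and 13.9 ± 2.43 TPM (SD, n = 3). On log2(TPM + 1), the difference of Elane was -1.05 (SE 0.16) for anti-PD1 against PBS, 0.17 for nanocapsule against PBS and 1.23 for nanocapsule against anti-PD1, with the same SE. The middle value ranged from 0.05, without PBS lung 1 or nanocapsule lung 2, to 0.32, with quantile scaling.

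Prtn3 encodes proteinase 3, the target of autoantibodies in some forms of human vasculitis. Its TPM were 46.1, 56.4 and 54.4 with PBS, 36.3, 32.1 and 38.5 with anti-PD1 and 64.7, 91.0 and 58.8 with nanocapsules. It was the only member whose nanocapsule lungs all lay above the PBS lungs, and nanocapsule lung 2 was the highest of the 9. Prtn3 means were 52.3 ± 5.47, 35.6 ± 3.26 and 71.5 ± 17.1 TPM (SD, n = 3). Its log2 differences were -0.54 (SE 0.16) for anti-PD1 against PBS, 0.42 for nanocapsule against PBS and 0.96 for nanocapsule against anti-PD1. Without nanocapsule lung 2 the middle value was 0.24. With a mean of 53.1 TPM over the lungs, Prtn3 was the most abundant member per length, above 83.4% of tested genes.

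Ctsg encodes cathepsin G, a protease of chymotrypsin-like specificity. Its TPM were 6.42, 10.4 and 10.5 with PBS, 6.34, 5.26 and 5.15 with anti-PD1 and 8.09, 8.74 and 10.5 with nanocapsules. The separation between anti-PD1 and PBS rested on a narrow margin, since PBS lung 1 was only just above anti-PD1 lung 1. Ctsg means were 9.10 ± 2.33, 5.58 ± 0.657 and 9.12 ± 1.27 TPM (SD, n = 3). The log2 difference was -0.59 (SE 0.19) for anti-PD1 against PBS, and -0.80 when PBS lung 1 was left out. Against PBS, the nanocapsule difference of Ctsg was 0.02, and against anti-PD1 it was 0.62. Ctsg was the least abundant member per length, and its mean lay above 41.9% of tested genes.

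Mpo is the only member that is not a protease. Its TPM were 17.4, 20.1 and 20.1 with PBS, 8.17, 8.91 and 9.62 with anti-PD1 and 14.5, 19.3 and 24.8 with nanocapsules. PBS and anti-PD1 lungs were each tightly grouped, whereas the nanocapsule lungs spread on both sides of the PBS lungs. Mpo means were 19.2 ± 1.55, 8.90 ± 0.723 and 19.5 ± 5.15 TPM (SD, n = 3). The log2 differences were -1.03 (SE 0.17) for anti-PD1 against PBS, -0.0044 for nanocapsule against PBS and 1.02 for nanocapsule against anti-PD1. The sign of the middle value changed under 6 of 19 alternative settings, so Mpo had no stable direction between nanocapsule and PBS lungs.

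**Figure D2:**
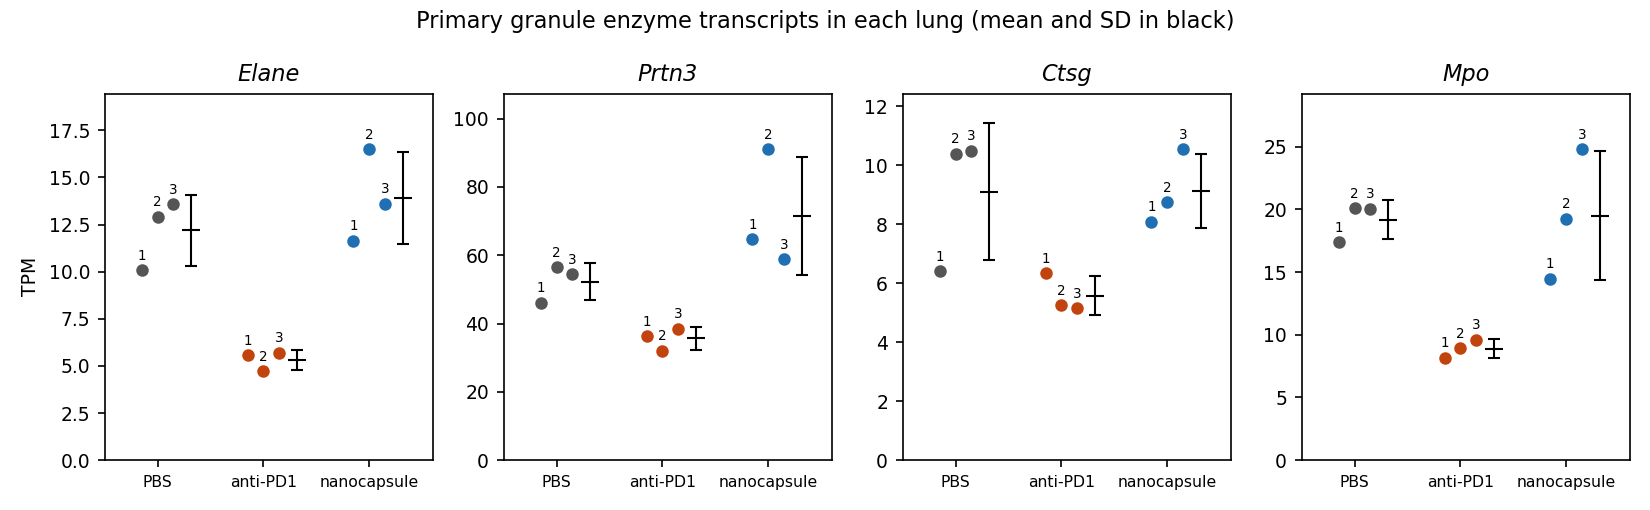
TPM of the 4 enzymes in each lung, numbered within its group, with the group mean and SD in black and a linear axis from 0 for each gene. Anti-PD1 lungs lie below all PBS and nanocapsule lungs for each gene, with the smallest gap for Ctsg, between 6.34 and 6.42 TPM.

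The sum of the 4 members was 80.0, 99.8 and 98.5 TPM with PBS, 56.3, 51.0 and 59.0 TPM with anti-PD1 and 98.9, 135.5 and 107.7 TPM with nanocapsules. An index was taken as the mean log2(TPM + 1) of the members. It differed by -0.80 between anti-PD1 and PBS, by 0.15 between nanocapsule and PBS and by 0.96 between nanocapsule and anti-PD1 (SE 0.138). The index difference between nanocapsule and PBS was 0.03 without PBS lung 1, 0.08 without nanocapsule lung 2, 0.26 without nanocapsule lung 1, 0.27 with median-of-ratios scaling and 0.28 with quantile scaling. The comparisons share lungs, so their values stand side by side and are not separate evidence.

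For anti-PD1 against PBS, 4 of 4 members had groups that did not overlap, on the lower side, and 13.4% of tested genes did the same. For nanocapsule against anti-PD1, 4 of 4 lay on the higher side, and 8.73% of tested genes did so. For nanocapsule against PBS, Prtn3 lay on the higher side, as did 2.4% of tested genes. The members were selected on these contrasts, so nothing is read from their counts. The limma test, at an adjusted p under 0.05, called 0.00755% of tested genes for anti-PD1 against PBS, 0.00755% for nanocapsule against PBS and 0.106% for nanocapsule against anti-PD1. These shares are 1, 1 and 14 genes. At an unadjusted p under 0.05 the counts were 2192, 1343 and 3670 of the 13248 tested genes. List counts at this threshold, given below, are to be read against these counts and are no result on their own. The 14 genes include 1 of the 4 members, Elane, and no member is among the other calls. With 1 lung left out, the number of members called in that comparison was 0 to 3. The members were selected on the same values, so these counts are no test of them. No gene at all was called in that comparison without anti-PD1 lung 1 or 2 or nanocapsule lung 2.

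The members did not keep fixed proportions. A ratio of 2 genes within a lung does not change when the whole library is scaled by 1 factor. It can change with quantile scaling. The ratio of Prtn3 to Elane TPM was 4.58, 4.37 and 4.01 with PBS, 6.53, 6.80 and 6.76 with anti-PD1 and 5.55, 5.52 and 4.32 with nanocapsules. All anti-PD1 lungs were above the other 6, and the PBS and nanocapsule lungs overlapped. Thus the Elane transcript was lower relative to that of Prtn3 with anti-PD1. The ratio of Ctsg to Elane was 0.64, 0.80 and 0.77 with PBS, 1.14, 1.11 and 0.90 with anti-PD1 and 0.69, 0.53 and 0.77 with nanocapsules, again highest in the anti-PD1 lungs. The ratio of Mpo to Elane ranged from 1.17 to 1.89 over the lungs, with overlap between all groups.

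**Figure D3:**
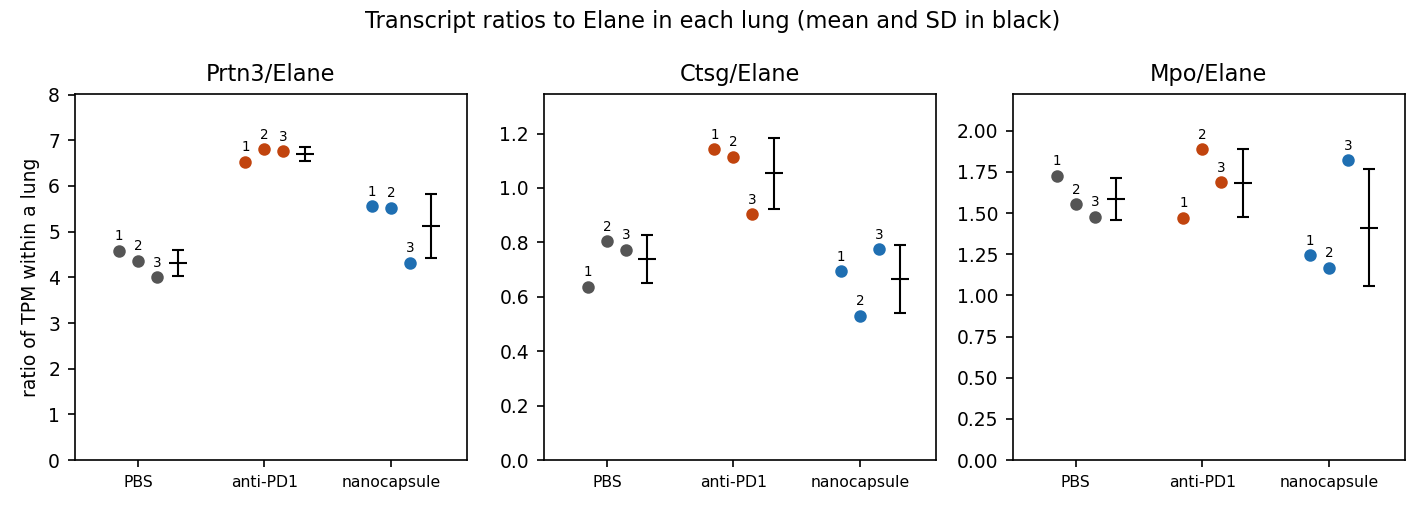
Ratios of Prtn3, Ctsg and Mpo TPM to Elane TPM within each lung, with group mean and SD in black and linear axes from 0. The anti-PD1 lungs hold the 3 highest Prtn3 to Elane ratios, 6.53 to 6.80, and the 3 highest Ctsg to Elane ratios, while the Mpo to Elane ratios overlap.

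As shares of the summed member TPM, Prtn3 took 56.5% with PBS, 64.2% with anti-PD1 and 62.4% with nanocapsules. Elane took 13.1%, 9.59% and 12.2% in the same order, and the anti-PD1 lungs were below both other groups without overlap. Mpo took 20.7%, 16.1% and 17.3%, with the nanocapsule lungs overlapping both groups. Ctsg took 9.70%, 10.1% and 8.14% with overlap throughout.

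The enzymes were next set against genes of later neutrophil stages. For each 1000 TPM of S100a8 and S100a9, the 4 members summed to 0.63, 0.60 and 0.82 TPM with PBS, 0.49, 0.43 and 0.57 with anti-PD1 and 0.64, 0.77 and 0.69 with nanocapsules. The anti-PD1 lungs were again below the others, so the member sum was also lower relative to these genes. Taken singly on this scale, Elane and Mpo kept the separation from both groups, for Mpo by a very narrow margin. The highest anti-PD1 value of Mpo was 0.09338 and its lowest nanocapsule value was 0.09347. Prtn3 overlapped between anti-PD1 and PBS, and Ctsg overlapped between all groups.

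Secondary and tertiary granule genes differed in the same directions as the members. The list had 16 genes, all tested, including Lcn2, which encodes an iron-siderophore binding protein, and Ngp, a neutrophil granule protein. For anti-PD1 against PBS, 15 of 16 had a lower mean, against 43.1% of tested genes, and 11 did not overlap, against 13.4%. The median log2 difference of these 16 genes was -0.63. None was called by limma, and 11 had an unadjusted p under 0.05. For nanocapsule against anti-PD1, 15 of 16 were higher, against 29.2% of tested genes, and 14 did not overlap, against 8.73%. The median there was 0.79. Cd177, a neutrophil surface glycoprotein that binds proteinase 3, was called by limma in that comparison, at 329 ± 26.3 against 595 ± 10.7 TPM (SD, n = 3). The call was lost when any 1 anti-PD1 or nanocapsule lung, or PBS lung 1, was left out, with limma adjusted p from 0.0659 to 0.178. The exception in both counts was Chil3, singled out after its values were seen. The member index minus the index of this list differed by -0.27 between anti-PD1 and PBS lungs, with overlap, and by 0.27 between nanocapsule and anti-PD1 lungs, without overlap.

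The list of 18 mature neutrophil genes had a median difference of -0.41 for anti-PD1 against PBS. All 18 means were lower there, against 43.1% of tested genes, and 13 did not overlap, against 13.4%. No gene of the list was called by limma there, and 13 had an unadjusted p under 0.05. For nanocapsule against anti-PD1 the median of the list was 0.43, and 17 of 18 means were higher, against 29.2% of tested genes. In that comparison limma called Padi4, the enzyme that citrullinates histones, at 99.8 ± 10.2 against 184 ± 8.33 TPM, and Ceacam10, at 52.7 ± 5.25 against 93.9 ± 9.75 TPM (SD, n = 3). Both calls were lost when any 1 anti-PD1 or nanocapsule lung, or PBS lung 1, was left out, with limma adjusted p of Padi4 from 0.0659 to 0.178. The member index minus the mature neutrophil index differed by -0.39 between anti-PD1 and PBS and by 0.51 between nanocapsule and anti-PD1, both without overlap. In nanocapsule against PBS the mature neutrophil median was 0.07. That value came to 0 with quantile scaling and -0.01 without nanocapsule lung 3.

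**Figure D4:**
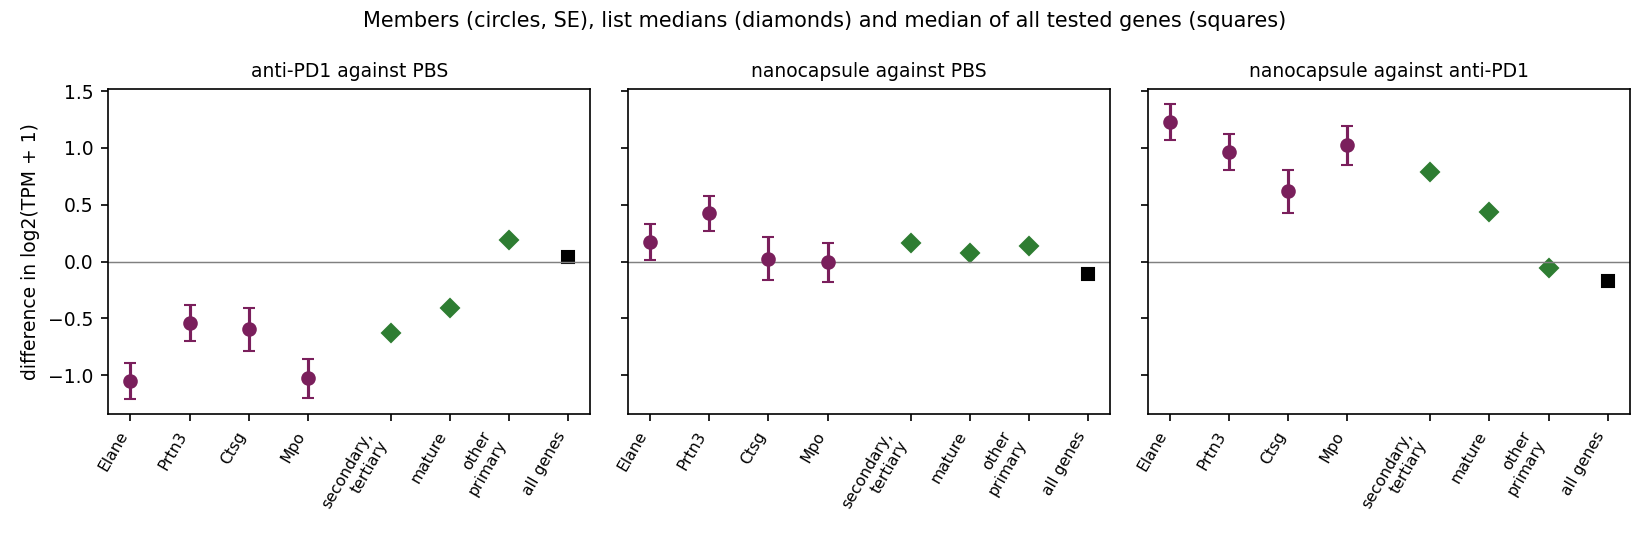
Differences in log2(TPM + 1) for the 4 members (circles, bars are the SE of the fit), medians of 3 neutrophil gene lists (diamonds) and the median of all tested genes (squares), for the 3 comparisons on 1 axis. Elane is lowest for anti-PD1 against PBS, at -1.05, and highest for nanocapsule against anti-PD1, at 1.23, while other primary granule contents had medians of 0.19 and -0.06.

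Other contents of primary granules were called in none of the 3 comparisons by limma. Of 7 genes on that list 6 were tested. The median differences were 0.19 for anti-PD1 against PBS, 0.14 for nanocapsule against PBS and -0.06 for nanocapsule against anti-PD1. At an unadjusted p under 0.05 the counts were 0, 1 and 1. The index of the list was 7.35 ± 0.0666 in PBS lungs and 7.56 ± 0.106 in anti-PD1 lungs (SD, n = 3), without overlap. Prss57, encoding a further neutrophil serine protease and named after its values were seen, was at 2.92, 4.17 and 2.66 TPM in the PBS lungs, at 3.24, 2.01 and 3.99 TPM with anti-PD1 and at 4.70, 6.85 and 6.14 TPM with nanocapsules. Its PBS and anti-PD1 lungs overlapped, and its nanocapsule lungs were above both groups. Scaling by median of ratios turned the last median to 0.14, and rescaling without S100a8 and S100a9 turned it to 0.03. Lyz2, encoding lysozyme, was at 8096 ± 1164, 9078 ± 1046 and 8737 ± 1431 TPM, and Ctsd, encoding the lysosomal protease cathepsin D, at 2157 ± 79.4, 2202 ± 194 and 2135 ± 270 TPM in PBS, anti-PD1 and nanocapsule lungs (SD, n = 3). Both are also expressed by macrophages, and their groups overlapped throughout.

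The 8 listed markers of early neutrophil precursors did not all go one way. Their median differences were -0.01, 0.07 and 0.04 for anti-PD1 against PBS, nanocapsule against PBS and nanocapsule against anti-PD1. For anti-PD1 against PBS, 4 means were higher and 4 lower. Of the 8, 2 were higher and 1 lower without overlap, against 12.1% and 13.4% of tested genes. For nanocapsule against anti-PD1, 2 were higher and 1 lower without overlap, against 8.73% and 24.6%. None of the 8 was called by limma, and 4, 0 and 4 had an unadjusted p under 0.05. Over all 13248 tested genes the counts were 2192, 1343 and 3670. Ms4a3, a marker of granulocyte and monocyte progenitors, was at 3.92 ± 0.559, 2.09 ± 0.522 and 4.90 ± 0.577 TPM (SD, n = 3), with anti-PD1 below both groups without overlap. It is also among the 10 genes nearest to the member index, given below. Fcnb, a ficolin gene of granulocyte precursors named after its values were seen, was at 12.3 ± 3.45, 6.97 ± 1.93 and 13.6 ± 0.636 TPM. Its anti-PD1 lungs overlapped the PBS lungs and lay below the nanocapsule lungs. Cd34, a marker of progenitors that endothelium also expresses, ranged from 11.2 to 30.5 TPM over the lungs, and the receptor gene Kit was at 18.6 ± 5.10, 14.9 ± 2.74 and 17.8 ± 3.92 TPM. Both overlapped between all groups. Of 12 cell cycle genes none was called by limma in any comparison, and none had an unadjusted p under 0.05.

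**Figure D5:**
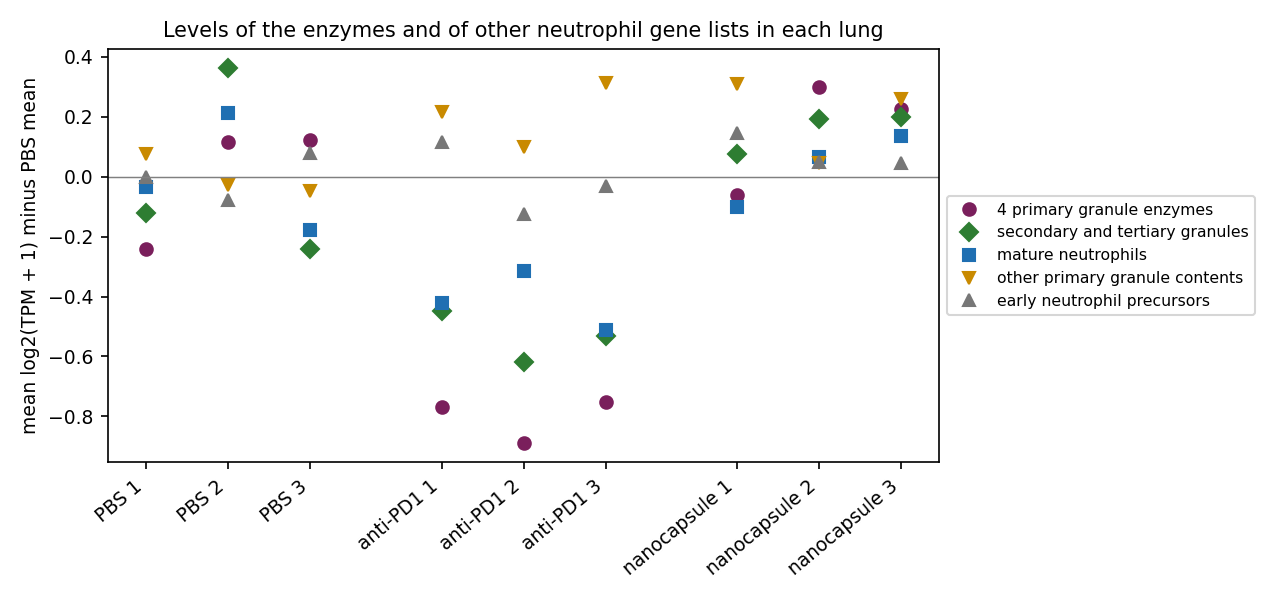
Mean log2(TPM + 1) of the 4 enzymes and of 4 other neutrophil gene lists in each lung, centred on the mean of the PBS lungs. The anti-PD1 lungs are below the PBS lungs for the 4 enzymes, the secondary and tertiary granules and the mature neutrophils, while the precursor values overlap between groups.

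Of 14 transcription factors of granulocyte development, limma called Cebpe, which drives secondary granule genes. It was at 29.3, 39.0 and 28.7 TPM with PBS, 19.9, 18.1 and 18.6 TPM with anti-PD1 and 38.9, 38.9 and 38.8 TPM with nanocapsules. Its log2 difference for nanocapsule against anti-PD1 was 1.01 (SE 0.12, limma adjusted p = 0.0393). These groups did not overlap, as for 8.73% of tested genes on the higher side. The call was lost when any 1 anti-PD1 or nanocapsule lung was left out, with limma adjusted p from 0.0670 to 0.163. The list as a whole had a median of -0.23 in that comparison. Spi1 was at 826 ± 64.7, 699 ± 91.4 and 864 ± 61.6 TPM and Cebpb at 2674 ± 76.3, 2406 ± 126 and 2758 ± 223 TPM (SD, n = 3), neither of them called.

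Genes that process, sort and release the enzymes went both ways. Of 15 tested genes none was called by limma, and 6, 0 and 5 had an unadjusted p under 0.05 in the 3 comparisons. Over all 13248 tested genes these counts were 2192, 1343 and 3670. The median of the 15 genes was -0.14 for anti-PD1 against PBS and 0.08 for nanocapsule against anti-PD1. In the first, 7 of 15 were lower and 3 higher without overlap, against 13.4% and 12.1% of tested genes. The 3 higher were G6pc3 at 0.38, Jagn1 at 0.40 and Vamp8 at 0.09. Lyst, which controls granule size, differed by -0.59, and Rab27a and Unc13d, which act in granule release, by -0.45 and -0.37, and all 3 were named after their values were seen. For nanocapsule against anti-PD1 these 3 genes, Lyst, Rab27a and Unc13d, differed by 0.57, 0.39 and 0.33, without overlap. In that comparison 5 of 15 were higher and 2 lower without overlap, against 8.73% and 24.6% of tested genes. The 2 lower were G6pc3 at -0.47 and Vps45 at -0.50. Srgn, the proteoglycan that holds the proteases in the granule, was at 2369 ± 237, 1941 ± 222 and 2143 ± 237 TPM (SD, n = 3). Vamp8, a vesicle fusion protein, was at 244 ± 2.09, 261 ± 19.9 and 268 ± 14.9 TPM. The 7 genes of the NADPH oxidase and peroxide handling list, which supplies the substrate of myeloperoxidase, had medians of -0.30, 0.06 and 0.33, and none was called. Their counts at an unadjusted p under 0.05 were 4, 0 and 5. Rac2 of this list was at 658 ± 78.5, 500 ± 4.62 and 685 ± 42.9 TPM.

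Of 16 protease inhibitor genes 8 were tested and none was called by limma. At an unadjusted p under 0.05 the counts were 2, 1 and 6, against 2192, 1343 and 3670 of 13248 tested genes. For nanocapsule against anti-PD1 their median was -0.56, and 4 of 8 were lower without overlap, against 24.6% of tested genes. The 2 most abundant inhibitors did not lie on that side. Serpinb6a, at a mean of 58.4 TPM over the lungs and named after its values were seen, did, with a difference of -0.53. Slpi, the secretory leukocyte protease inhibitor, was at 983 ± 86.6, 868 ± 109 and 1013 ± 100 TPM in PBS, anti-PD1 and nanocapsule lungs. Serpinb1a, an intracellular inhibitor of all 3 proteases, was at 105 ± 4.42, 87.0 ± 7.91 and 110 ± 9.68 TPM (SD, n = 3), lowest in the anti-PD1 lungs as were the members. Of 8 tested substrates and receptors cleaved by the proteases none was called, and 2, 0 and 5 had an unadjusted p under 0.05. The most abundant of them, Csf3r, the receptor for granulocyte colony-stimulating factor, was at 1743 ± 252, 1308 ± 161 and 1671 ± 226 TPM.

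The tested genes with a pattern most like the members were ranked by the root mean square distance of their centred log2(TPM + 1) from the member index over the 9 lungs. The 10 nearest were Retnlg at 0.138, Ceacam10 at 0.140, Cep19 at 0.145, Egln3 at 0.152, Cebpe at 0.155, Klf5 at 0.157, Padi4 at 0.160, Fam20c at 0.164, Cd177 at 0.164 and Ms4a3 at 0.165. The median over 13244 genes was 0.539. The distances of the members themselves were 0.133 for Elane, 0.168 for Mpo, 0.188 for Ctsg and 0.189 for Prtn3. Each member is part of that index, so these distances cannot be set against those of other genes. The ranking is a description of these libraries. Retnlg, a mature neutrophil gene, was at 7367 ± 999.7, 4769 ± 137 and 8761 ± 1534 TPM in PBS, anti-PD1 and nanocapsule lungs (SD, n = 3).

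Protein-coding neighbours of the members were examined next. Ptbp1 and Med16 flank the Prtn3 and Elane pair along with Plppr3 and Cfd. Ptbp1 was at 95.9, 98.6 and 80.1 TPM as means of PBS, anti-PD1 and nanocapsule lungs, and Med16 ranged from 9.67 to 13.9 TPM over the lungs. Cfd stayed below 1 TPM in all lungs. Plppr3, on the opposite strand, overlaps the annotated span of Prtn3 by 159 bp and ranged from 2.38 to 4.17 TPM, well below Prtn3. An antisense gene overlapping Mpo reached at most 0.151 TPM. The labels name no strand setting, so reads of overlapping genes cannot be told apart. Next to Mpo, Supt4a was at 246, 226 and 257 TPM, Tspoap1 at 1.17, 1.12 and 1.41 TPM and Mks1 at 2.57, 2.81 and 2.45 TPM, and Lpo, another peroxidase gene, stayed below 1 TPM. Next to Ctsg, Mcpt8, a basophil protease gene, was at 56.3, 57.6 and 53.0 TPM, Mcpt4, a mast cell protease gene, at 5.80, 1.28 and 0.656 TPM, and Gzme and Gzmd stayed below 1 TPM. The 3 groups overlapped for Mcpt8, which lies 14607 bp from Ctsg.

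Markers of other cells also differed between the groups. The 9 lung parenchyma markers had a median difference of 0.93 for anti-PD1 against PBS. Of these, 7 of 9 means were higher, against 56.9% of tested genes. The summed level of the list was 3149 to 8038 TPM with PBS, 5142 to 13353 TPM with anti-PD1 and 3342 to 12199 TPM with nanocapsules. The 7 alveolar macrophage markers had a median of 0.62, and 5 of 7 were higher without overlap, against 12.1% of tested genes. Their sum was 1657 to 1944 TPM with anti-PD1 against 834 to 1349 TPM with PBS and 818 to 1389 TPM with nanocapsules. The 6 tested erythroid markers had a median of 1.42, with sums that overlapped between all groups. The 8 monocyte markers had medians of -0.13, 0.25 and 0.42. No marker of these 4 lists was called by limma. At an unadjusted p under 0.05, for anti-PD1 against PBS, the counts were 6, 4, 4 and 1, against 2192 of 13248 tested genes. Mitochondrial transcripts took 3.55% ± 1.05, 5.41% ± 0.379 and 2.63% ± 0.584 of the TPM (SD, n = 3), highest in the anti-PD1 lungs. The part of these markers and of the mitochondrial share in the enzyme differences was not tested.

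Markers of other granulocytes had medians below 0 in both treated groups. Genes lay on both sides, except that all 8 tested eosinophil markers had lower means with nanocapsules than with PBS. In that comparison 71.2% of tested genes had a lower mean. The 8 tested eosinophil markers had medians of -0.84 for anti-PD1 against PBS and -0.78 for nanocapsule against PBS. In the first, 6 of 8 were lower without overlap, against 13.4% of tested genes, and Ear1 and Siglecf were higher without overlap, against 12.1%. Ear1, which has near-identical relatives that may share its reads, was at 273 ± 56.1 and 381 ± 33.8 TPM, and Siglecf, also a gene of alveolar macrophages, at 54.1 ± 9.99 and 68.5 ± 6.10 TPM with PBS and anti-PD1 (SD, n = 3). The summed level of the list was 432 ± 47.7 TPM with PBS and 480 ± 38.1 TPM with anti-PD1 (SD, n = 3), with overlap. In the second comparison, 5 of 8 were lower without overlap, against 11.9% of tested genes. The 10 basophil and mast cell markers had medians of -0.32 and -0.40. Of their 10 means, 2 and 3 were higher, against 56.9% and 28.8% of tested genes. Neither list had a gene called by limma, and 7 and 5 of the eosinophil markers and 5 and 6 of the basophil and mast cell markers had an unadjusted p under 0.05. For nanocapsule against PBS the enzyme index differed by 0.15, with overlap. The epithelial keratin list had 5 tested genes, a median of 0.19 for anti-PD1 against PBS and no called gene.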

How the data were processed

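Lung polyA RNA was sequenced in 9 samples, 3 a group. The authors deposited TPM per gene, scaled to the same sum in each column. Salmon appears in the name of their table, and DESeq2 and GRCm38 are named without roles, per the submitters' processing notes. Filters and strand setting are not given in the sources used here.

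Genes at 1 TPM or more in at least 3 samples were fitted with limma 3.58.1 (R 4.3.3) on log2(TPM + 1), with a variance trend and a spread shared by the 3 groups (6 residual degrees of freedom). The two-sided p-values received Benjamini-Hochberg adjustment in each comparison. The fit was tested on simulated data. An exact permutation test of 3 lungs against 3 cannot give a two-sided p below 0.1.

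The members and the 17 gene lists were chosen with earlier results of these data known. Named genes are the members, the called genes and the 2 most abundant of each list (some unprinted), the 10 nearest genes without predicted genes, and the 2 coding neighbours on each side. Symbols came from the table and positions from GENCODE M21, which held 98.8% of the gene IDs. Of the 19 alternatives, 9 left out 1 lung each, and the others changed pseudocount, filter, scaling, variance model, samples fitted or replicate block.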

Additional observations from a re-analysis of the deposited data

How the results depend on the processing

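The direction of all 4 members held in all 19 alternatives for anti-PD1 against PBS and for nanocapsule against anti-PD1. Leaving out 1 lung, the member index ranged from -0.92 to -0.74, from 0.03 to 0.26 for nanocapsule against PBS, and from 0.89 to 1.07 for nanocapsule against anti-PD1. The last was 1.14 with median-of-ratios and 1.15 with quantile scaling. For nanocapsule against PBS, Mpo turned to 0.11 (median of ratios), 0.13 (quantile), 0.033 (rescaled without S100a8 and S100a9), 0.03 (without PBS lung 2 or 3) and 0.18 (without nanocapsule lung 1). Ctsg turned to -0.18 without PBS lung 1 and -0.07 without nanocapsule lung 3.

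Genes called for anti-PD1 against PBS (1) became 0 with a pseudocount of 0.1, median-of-ratios or quantile scaling, no S100a8 and S100a9, or no variance trend, and 0 to 3 without 1 lung. For nanocapsule against PBS (1) they became 2 with a pseudocount of 0.1 or 0.5 or no trend, 0 with no filter or quantile scaling, 3 with a mean of at least 5 TPM, 4 with median of ratios or without S100a8 and S100a9, and 0 to 4 without 1 lung. For nanocapsule against anti-PD1, 14 were called, 9 higher and 5 lower. The count became 3 with no filter (1 higher, 2 lower), 197 with a mean of at least 5 TPM (96, 101), 22 with median of ratios (20, 2), 75 with quantile scaling (60, 15), 71 without S100a8 and S100a9 (55, 16), 2 with no trend (0, 2) and 526 when only these 2 groups were fitted (191, 335). Without 1 lung it ranged from 0 to 960, with 960 without PBS lung 2, 194 without PBS lung 3, 5 without nanocapsule lung 1, 1 without anti-PD1 lung 3 or nanocapsule lung 3, and 0 without anti-PD1 lung 1 or 2 or nanocapsule lung 2. Members called there (1) became 0 with no filter or no trend, 2 with median of ratios, 3 with a mean of at least 5 TPM, quantile scaling, no S100a8 and S100a9 or only 2 groups, and 0 to 3 without 1 lung. These member counts come from the contrasts that the members were selected on and are no test of them. The cause of these changes was not tested.

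Same-numbered lungs correlated at 0.06 to 0.28 for anti-PD1 against PBS, -0.14 to 0.14 for nanocapsule against PBS and -0.18 to 0.04 for nanocapsule against anti-PD1. Not every pair was over 0.1 in any comparison, so the numbers were not taken to pair the samples. With the replicate block, 5 genes were called for nanocapsule against PBS and 1095 for nanocapsule against anti-PD1 (238 higher, 857 lower), with 3 members among them. In anti-PD1 against PBS, each lung correlated best with its own number, a hint from the data and not from the design. Depth is unknown, so counting error could not be given.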
